A study of Rattus norvegicus with 9 samples.

Results

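The genes described here set the entry of a cell into its division cycle: the D cyclins (Ccnd1, Ccnd2 and Ccnd3), their catalytic partners CDK4 and CDK6 (Cdk4 and Cdk6), 4 inhibitors of cyclin-dependent kinases (Cdkn1b, Cdkn1c, Cdkn2b and Cdkn2c) and the retinoblastoma gene Rb1. Every probe set annotated to exactly 1 of these 10 genes was taken, which gave 14 of the 31042 probe sets tested, and 10 of the 14212 genes named on the array. Ccnd1 had 3 probe sets, Cdkn1b and Cdkn2c had 2 each, and the other 7 genes had 1 each.

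RNA came from primary Schwann cells of rat sciatic nerve, the myelin-forming glia of peripheral nerves. Cells were transiently transfected with RNAi oligonucleotides, and RNA was collected 48 hours later. The Control RNAi group received a scrambled oligonucleotide, the NF1 RNAi group received oligonucleotides against Nf1, and the NF1 RNAi + U0126 group received the same oligonucleotides together with the MEK inhibitor U0126 (written UO126 in the sample labels). Each group held 3 independent biological replicates on 1 array each, 9 arrays in all. Nf1 encodes neurofibromin, which switches Ras off by stimulating its GTPase activity, and MEK is the kinase that activates ERK below Ras. All 3 groups were transfected, so there is no untransfected reference, and control cells given the inhibitor were not analysed here, so U0126 was measured only in cells with NF1 knockdown. No source used here gives the dose or timing of U0126, the oligonucleotide sequences or the age and sex of the animals.

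As background, D cyclins bind CDK4 or CDK6, and the active kinases phosphorylate the retinoblastoma protein, which then releases E2F transcription factors to switch on the genes of S phase. Inhibitors of the INK4 family (p15 from Cdkn2b, p18 from Cdkn2c) bind CDK4 and CDK6 themselves, whereas those of the Cip/Kip family (p27 from Cdkn1b, p57 from Cdkn1c) bind cyclin-CDK complexes. Growth factor signalling through Ras, MEK and ERK is a textbook inducer of Ccnd1. In Schwann cells, p27 and p57 are known in connection with withdrawal from the cycle and differentiation.

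Values are log2 of the deposited RMA intensity plus 1, and differences are on that log2 scale with the standard error (SE) of the fit. The groups were compared with limma over all 9 arrays, with Benjamini-Hochberg adjustment over 31042 probe sets and an adjusted p under 0.05 as the threshold, and all adjusted p-values below are from limma. Brightness depends on the probes, so levels of different probe sets were not ranked against each other. The 3 comparisons share arrays, so their values for a gene are not independent of one another. In these bulk cultures, fewer cells expressing a gene and less RNA per cell cannot be told apart.

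The knockdown was visible on the Nf1 probe set. It read 6.65, 6.59 and 6.15 in Control RNAi, 5.39, 5.41 and 5.44 in NF1 RNAi, and 5.44, 5.72 and 5.39 in NF1 RNAi + U0126, so neither knockdown group overlapped with the control. The Schwann cell markers S100b, Ngfr and Sox10 were bright, at mean log2 values of 13.24, 12.80 and 11.40 in control cells. Some fibroblast markers were bright as well, since the 12 measured summed to an intensity of 37250 to 39247 in Control RNAi. Median array intensities lay between 94.6 and 96.7. Control RNAi replicate 1 stood apart from its group: over all probe sets, the SD of its log2 differences from the other control arrays was 0.31 and 0.36, against 0.15 between those 2. Its beta-actin 3′ minus 5′ difference was 0.90, against 0.62 and 0.60 in the other controls and 0.78 to 0.87 in the 6 knockdown arrays. Results that this array moves are given with and without it. Arrays with the same replicate number deviated together, most clearly those numbered 1 (r of deviations from group means 0.37 to 0.59). Those numbered 2 (r = 0.14 to 0.21) did so no more than some pairs of a number 2 with a number 3 array (r up to 0.37). Where a fit with the replicate number as a block changes a call, its value is given beside the main one.

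**Figure D1:**
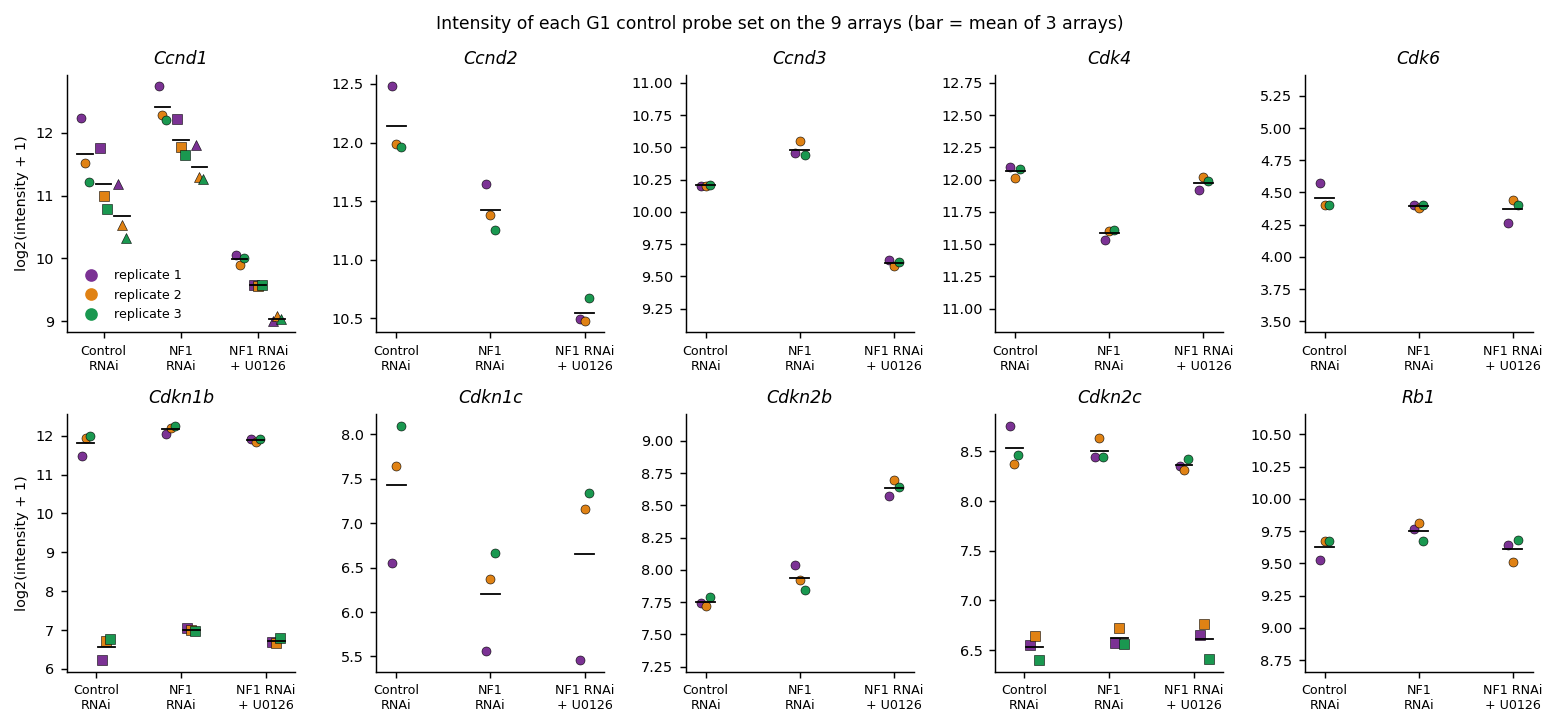
Log2 intensity of the 14 probe sets on each of the 9 arrays, with 1 panel per gene, 1 point per array coloured by replicate number, a different marker shape for each probe set of a gene, and a bar for the mean of 3 arrays. Ccnd1 is lowest in NF1 RNAi + U0126 on all 3 of its probe sets, Ccnd2 steps down from group to group, Cdk4 is lowest in NF1 RNAi, and Cdkn2b is highest in NF1 RNAi + U0126.

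After NF1 knockdown, Ccnd3 and 1 probe set each of Ccnd1 and Cdkn1b rose, and Ccnd2 and Cdk4 fell. That is 3 of 14 probe sets higher and 2 lower, where 10.6% of all probe sets were called higher and 9.84% lower. With the replicate block, 6 were higher and 3 lower, and the 6 included all 3 Ccnd1 probe sets. The block also called more of the array, 8011 probe sets in either direction against 6338 in the main fit. The shares above are from the main fit, so they are not a background for the counts with the block. Adding U0126 to knockdown cells lowered all 3 D cyclins (5 probe sets, against a background of 5.58% called lower) and raised Cdk4 and Cdkn2b (2 probe sets, against 4.45% called higher). Between NF1 RNAi + U0126 and Control RNAi, the same 5 cyclin probe sets were lower and Cdkn2b was higher, against 13.9% and 14.2% of all probe sets. The median difference over the 14 probe sets was 0.16, −0.21 and −0.13 in these 3 comparisons, and that over all probe sets was 0.02, 0.02 and 0.05.

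**Figure D2:**
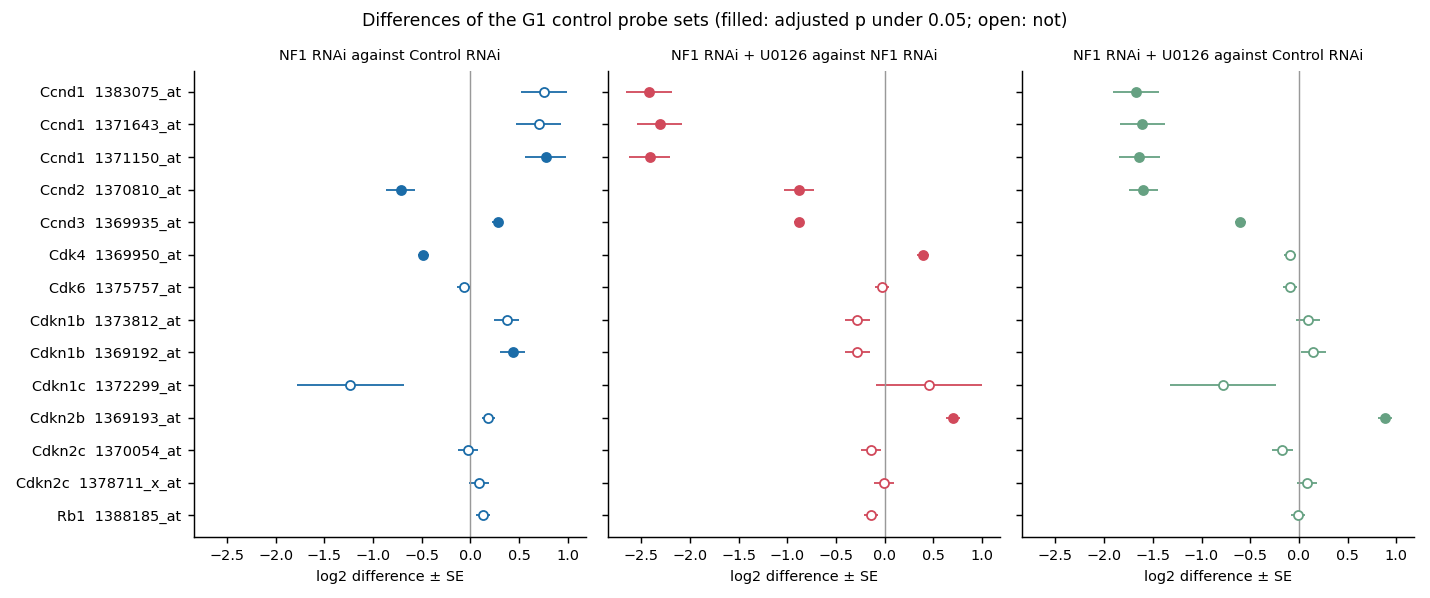
Log2 difference of each of the 14 probe sets in the 3 comparisons, with 1 panel per comparison, bars for ± 1 SE of the limma fit, and filled points where the adjusted p was under 0.05. The longest shifts are those of the 3 Ccnd1 probe sets under U0126, from −2.42 to −2.31, and the widest bars are those of Cdkn1c, with an SE of 0.55.

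Ccnd1, whose cyclin is the D cyclin most directly tied to Ras and ERK signalling, was the member with the largest response to the inhibitor. Probe set 1371150_at read 11.18, 10.53 and 10.33 in Control RNAi, 11.81, 11.30 and 11.26 in NF1 RNAi, and 9.01, 9.09 and 9.03 in NF1 RNAi + U0126. Every knockdown array was above every control array, and every inhibitor-treated array was below both groups. The fall under U0126 was −2.41 ± 0.21 (SE, n = 3 per group, adjusted p = 0.000245), which is 5.32-fold lower than in knockdown cells, and the level was also 1.64 below the control on the log2 scale (difference −1.64, adjusted p = 0.000435).

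The other Ccnd1 probe sets gave the same order of group means. Probe set 1383075_at read 12.23, 11.52 and 11.21 in control cells, 12.74, 12.28 and 12.20 in knockdown cells, and between 9.90 and 10.05 with U0126. Probe set 1371643_at read 11.75 in control replicate 1 and no lower than 10.79 in the other controls, then 12.22, 11.77 and 11.64, then 9.57, 9.56 and 9.58. On both, the brightest control array, replicate 1, lay within the range of the knockdown arrays, and the inhibitor-treated arrays lay clear of all others. Their falls under U0126 were 5.36-fold and 4.95-fold (adjusted p = 0.000376 and 0.000434). The 3 probe sets report on 1 transcript and are not replicates of each other.

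The rise of Ccnd1 after knockdown was less sharply resolved. It was 0.77 ± 0.21 on 1371150_at (adjusted p = 0.0292), 0.75 ± 0.24 on 1383075_at (adjusted p = 0.0513) and 0.70 ± 0.23 on 1371643_at (adjusted p = 0.0616). With the replicate block all 3 passed, at adjusted p = 0.00706, 0.00836 and 0.0136. Within replicate numbers 1 to 3, knockdown minus control was 0.63, 0.77 and 0.92 on the first of these probe sets, 0.51, 0.76 and 0.99 on the second, and 0.47, 0.77 and 0.86 on the third, so each of the 9 differences was above 0. Without Control RNAi replicate 1 the rises were 1.02, 1.04 and 0.99, with adjusted p between 0.00191 and 0.00227. The call on 1371150_at was lost without Control RNAi replicate 2 or 3 or without NF1 RNAi replicate 1 or 2. It was also lost in a fit of only the groups compared, without the U0126 arrays. Its adjusted p ranged from 0.00033 to 0.098 over the alternatives run.

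Ccnd2, which encodes cyclin D2, went the other way after knockdown and fell further with U0126. Its probe set read 12.48, 11.99 and 11.96 in Control RNAi, 11.65, 11.38 and 11.25 in NF1 RNAi, and 10.49, 10.48 and 10.67 in NF1 RNAi + U0126. No group overlapped with another. The first step was −0.72 ± 0.15 (adjusted p = 0.00926), the second −0.88 ± 0.15 (adjusted p = 0.00649), and together they left Ccnd2 3.03-fold below the control (−1.60 ± 0.15, adjusted p = 8.14e-05). All 3 calls stood when each array was left out in turn.

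Ccnd3, which encodes cyclin D3, rose slightly after knockdown and fell below the control with U0126. It read 10.20, 10.20 and 10.21 in Control RNAi, 10.46, 10.55 and 10.44 in NF1 RNAi, and 9.63, 9.58 and 9.61 in NF1 RNAi + U0126. The 3 groups were fully separate, with little spread inside each. The differences were 0.28 ± 0.06 (adjusted p = 0.00713) after knockdown, −0.88 ± 0.06 (adjusted p = 5.33e-05) with U0126, a 1.84-fold fall, and −0.60 against the control (adjusted p = 7.26e-05).

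The D cyclins therefore shared the direction of their response to U0126 but not that to knockdown. The Ccnd1 minus Ccnd2 log2 value (brightest probe sets) was −0.25, −0.47 and −0.75 in Control RNAi, 1.09, 0.90 and 0.95 in NF1 RNAi, and −0.43, −0.59 and −0.67 in NF1 RNAi + U0126. Its change was 1.47 with knockdown and −1.54 with U0126, each without overlap between arrays, and −0.07 between NF1 RNAi + U0126 and control, where the arrays overlapped. This ratio and the next were chosen after their values were seen. The first of these changes had an exact two-sided permutation p of 0.1, the smallest that 3 against 3 arrays can give. Any change without overlap between arrays has that same p, so it adds nothing to the absence of overlap. For Ccnd3 minus Ccnd2 the change was 0.996 with knockdown, without overlap between arrays. From NF1 RNAi to NF1 RNAi + U0126 it changed by a further 0.0024, with overlapping arrays, and so remained 0.998 above the control, without overlap.

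A promoter window was found in the RefSeq table (assembly GRCr8) for 6 of the 10 genes, covering 250 bases before to 50 bases after the gene's start. The Ccnd3 window is shown because it carried a half-site of the cAMP response element (CRE), TGACGT, a motif known for binding CREB and ATF factors. Either strand counted as a match, and the half-site also matches inside a full CRE. The half-site was present in 7.94% of 33469 such windows and, among the 6 genes, in those of Ccnd3, Cdkn2b and Rb1. The 250 bases before the start, chr9:20897876-20898125 on the minus strand, are given 5′ to 3′ with the half-site in capitals, its first base 52 bases before the start.
Ccnd3: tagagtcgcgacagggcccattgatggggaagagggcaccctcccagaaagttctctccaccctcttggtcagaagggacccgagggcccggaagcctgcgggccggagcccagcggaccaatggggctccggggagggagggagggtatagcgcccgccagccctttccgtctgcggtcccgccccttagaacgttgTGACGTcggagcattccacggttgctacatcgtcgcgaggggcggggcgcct
The same window also held CCGGAAG, the core of an ETS factor site, which was found in 8.75% of windows. ETS factors include known substrates of ERK. These matches are a description of the letters only, with no measurement of binding here.

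Cdk4, the main catalytic partner of D cyclins in many cell types, moved opposite to Ccnd3 in both steps. It read 12.10, 12.01 and 12.08 in Control RNAi, 11.53, 11.60 and 11.61 in NF1 RNAi, and 11.92, 12.02 and 11.99 in NF1 RNAi + U0126. All knockdown arrays lay below all others, and the inhibitor-treated arrays lay within or just under the range of the controls. The fall after knockdown was −0.48 ± 0.06 (adjusted p = 0.000651), the rise with U0126 was 0.39 ± 0.06 (adjusted p = 0.00365), and the remaining difference from the control was −0.09 (95% confidence interval −0.22 to 0.05, adjusted p = 0.306). Both calls stood when each array was left out in turn.

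The Cdk4 window is shown because it held 3 copies of the E-box CACGTG, the palindrome known to be bound by MYC and MAX, and Cdk4 is a known target of MYC. One or more copies occurred in 6.42% of the 33469 windows, and 3 or more in 19 windows (0.0568%). The bases chr7:64771203-64771452 on the plus strand are given with the E-boxes in capitals, starting 203, 183 and 95 bases before the start.
Cdk4: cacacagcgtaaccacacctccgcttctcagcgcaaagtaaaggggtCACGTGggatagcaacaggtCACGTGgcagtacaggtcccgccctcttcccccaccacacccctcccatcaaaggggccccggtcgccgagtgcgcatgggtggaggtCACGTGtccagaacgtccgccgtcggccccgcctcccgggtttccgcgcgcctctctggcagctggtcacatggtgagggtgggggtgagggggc
Myc itself, picked out after its values were seen, fell after knockdown (−0.73 ± 0.19, adjusted p = 0.0213) and fell again with U0126 (−1.24 ± 0.19, adjusted p = 0.00337), so its transcript and that of Cdk4 moved in opposite directions under the inhibitor. The fall of Myc after knockdown was lost without Control RNAi replicate 2 or 3 or NF1 RNAi replicate 1 (adjusted p up to 0.0749). Any link between the 2 transcripts was not tested.

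Cdk6, the other D cyclin partner, was read at the low end of the array. It lay between 4.26 and 4.57 on all 9 arrays, between the 14.2 and 19.4 percentiles of the probe sets, and the groups overlapped. The differences were −0.06 (95% confidence interval −0.23 to 0.10, adjusted p = 0.626) after knockdown and −0.03 (−0.19 to 0.14, adjusted p = 0.877) with U0126. At so dim a signal a change in Cdk6 may not be measurable with this probe set.

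Among the Cip/Kip inhibitors, Cdkn1b (p27) was higher in knockdown cells on both probe sets. Probe set 1373812_at read 11.48, 11.93 and 11.98 in Control RNAi, 12.05, 12.20 and 12.26 in NF1 RNAi, and 11.92, 11.84 and 11.92 in NF1 RNAi + U0126. Probe set 1369192_at read 6.23, 6.72 and 6.77, then 7.04, 7.01 and 6.97, then 6.70, 6.66 and 6.80. On both, every knockdown array was above every control array, and replicate 1 was the lowest control.

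The rise was 0.43 ± 0.13 on 1369192_at (adjusted p = 0.0414) and 0.37 ± 0.12 on 1373812_at (adjusted p = 0.0665, or 0.0314 with the replicate block). Without Control RNAi replicate 1 these became 0.26 (adjusted p = 0.0285) and 0.21 (adjusted p = 0.0968). The call on 1369192_at was kept in 3 of the 9 fits that left out 1 array, those without a control array, and was lost without any 1 of the 6 knockdown arrays. It was also lost in a fit of only the groups compared and without replicate 1 of all groups. With U0126 both probe sets read 0.28 lower than in knockdown cells (adjusted p = 0.232 and 0.224), and the adjusted p without Control RNAi replicate 1 was 0.0172 and 0.0316. The inhibitor-treated cells differed from the control by 0.15 and 0.09 (adjusted p = 0.43 and 0.629).

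Cdkn1c, which encodes p57, was spread widely within each group. It read 6.55, 7.64 and 8.10 in Control RNAi, 5.56, 6.37 and 6.66 in NF1 RNAi, and 5.46, 7.16 and 7.34 in NF1 RNAi + U0126. Replicate 1 was the lowest array of every group, so the groups overlapped although every knockdown array was below the control of the same number. The difference after knockdown was −1.23 ± 0.55 with an adjusted p of 0.159. With the replicate block it was −1.23 ± 0.16 with an adjusted p of 0.00103, and the differences within numbers were −0.99, −1.27 and −1.44. It also passed with array weights and without replicate 1 of all groups (−1.35, adjusted p = 0.001).

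With U0126, Cdkn1c differed from knockdown cells by 0.46 ± 0.55 (adjusted p = 0.702, or 0.102 with the block), and the differences within numbers were −0.10, 0.79 and 0.68. Without replicate 1 of all groups this difference was 0.73 ± 0.16 and passed (adjusted p = 0.0238), and over all alternatives it lay between 0.11 and 1.05. Against the control the difference was −0.78 (adjusted p = 0.331, or 0.00616 with the block), with −1.09, −0.48 and −0.76 within numbers. Without replicate 1 of all groups it was −0.62 (adjusted p = 0.0234).

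The INK4 inhibitor Cdkn2b (p15) rose with the inhibitor. It read 7.74, 7.72 and 7.79 in Control RNAi, 8.04, 7.92 and 7.84 in NF1 RNAi, and 8.57, 8.70 and 8.64 in NF1 RNAi + U0126. The knockdown arrays were all above the control arrays by a small step, and the inhibitor-treated arrays were well above both. The small step was 0.18 ± 0.07 (adjusted p = 0.0971). The rise with U0126 was 0.70 ± 0.07 (1.63-fold, adjusted p = 0.000405) and that against the control was 0.89 ± 0.07 (1.85-fold, adjusted p = 2.88e-05), and both stood when each array was left out.

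The Cdkn2b window is shown because, alone among the 6 members with a window, it held the full palindromic CRE, TGACGTCA, present in 1.83% of windows on either strand. The bases chr5:109134856-109135105 on the minus strand are given with the CRE in capitals, starting 96 bases before the start.
Cdkn2b: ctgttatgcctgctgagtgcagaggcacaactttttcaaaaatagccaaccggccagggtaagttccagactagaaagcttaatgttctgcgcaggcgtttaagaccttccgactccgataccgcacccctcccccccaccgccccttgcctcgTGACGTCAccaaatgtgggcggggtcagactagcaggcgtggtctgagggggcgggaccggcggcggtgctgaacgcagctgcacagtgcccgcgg
The other motifs searched on both strands were AP-1 (TGANTCA, 7.33% of windows) and FOXO (TGTTTAC, 3.78%), found in none of the 6, the E2F forms TTTCCCGC or TTTGGCGC (1.45%), found in Rb1, the SP1 box GGGCGG (33.1%), found in all 6, and CCAAT (37.5%), found in Ccnd3 and Cdkn1b.

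Cdkn2c, which encodes the INK4 inhibitor p18, and Rb1, the substrate of the pathway, passed no comparison. Cdkn2c on 1370054_at ranged from 8.31 to 8.76 over the 9 arrays, and its differences were −0.03 (95% confidence interval −0.26 to 0.21, adjusted p = 0.899) after knockdown and −0.14 (−0.38 to 0.09, adjusted p = 0.498) with U0126. Its second probe set, 1378711_x_at, ranged from 6.40 to 6.76 (adjusted p = 0.618 and 0.975). Rb1 ranged from 9.51 to 9.81 and differed by 0.13 (−0.04 to 0.29, adjusted p = 0.286) and −0.14 (−0.30 to 0.03, adjusted p = 0.311). Changes as large as that of Cdk4 after knockdown lie outside these intervals for 1370054_at and Rb1.

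Of the 3 other inhibitor genes, Cdkn2a, the neighbour of Cdkn2b that encodes p16 and ARF, followed Cdkn2b. It read 9.04 ± 0.07 (SD, n = 3) in Control RNAi, 9.34 ± 0.18 in NF1 RNAi and 9.88 ± 0.08 in NF1 RNAi + U0126, a rise of 0.54 ± 0.09 with U0126 (adjusted p = 0.00674) after a difference of 0.30 with knockdown (adjusted p = 0.0507, or 0.0172 without NF1 RNAi replicate 3). Cdkn2d (p19) fell in both steps, by −0.38 ± 0.07 (adjusted p = 0.00723) and −0.36 ± 0.07 (adjusted p = 0.0155), the second call being lost without NF1 RNAi replicate 2 or without NF1 RNAi + U0126 replicate 1 or 2 (adjusted p up to 0.0692). Of its 2 probe sets, 2 were called in the first step and 1 in the second. Cdkn1a (p21) varied within the control group (SD 1.03), and its differences of 0.57 and 0.85 did not pass (adjusted p = 0.484 and 0.348), though the second did with the replicate block (adjusted p = 0.0288). Its excess over the control with U0126, 1.42 ± 0.48, had an adjusted p of 0.0536, or 0.00119 with the block. Without Control RNAi replicate 1, Cdkn1a was 1.15 ± 0.33 higher after knockdown (adjusted p = 0.0373) and 1.999 ± 0.33 above the control with U0126 (adjusted p = 0.00191), and the latter had an adjusted p of 0.0497 without NF1 RNAi replicate 1. These Cdkn1a values are from the brightest of its 2 probe sets, and the other was called between NF1 RNAi + U0126 and Control RNAi. The INK4 genes thus did not move as a family: Cdkn2a and Cdkn2b rose with U0126, Cdkn2d fell and Cdkn2c did not pass.

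**Figure D3:**
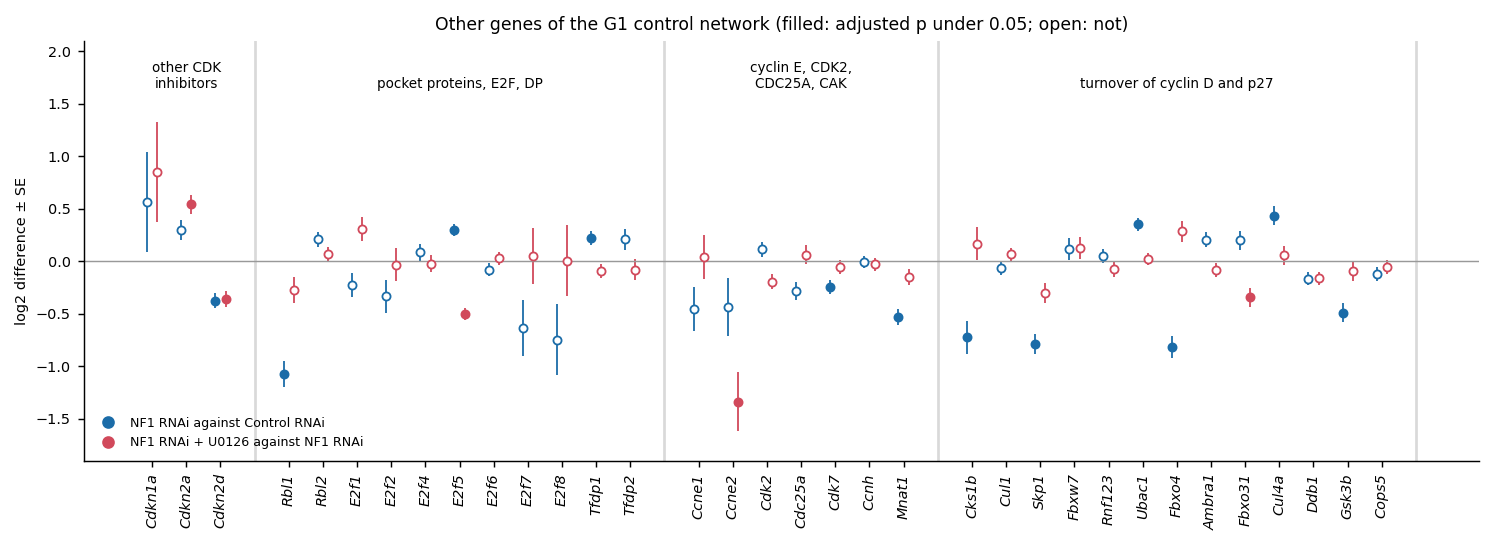
Log2 difference ± SE of each measured gene in 4 lists around the members (other CDK inhibitors, pocket proteins with E2F and DP factors, cyclin E with CDK2 and the CDK-activating kinase CAK, and turnover of cyclin D and p27), for NF1 RNAi against Control RNAi and for NF1 RNAi + U0126 against NF1 RNAi, filled where the adjusted p was under 0.05. Rbl1 lies lowest after knockdown at −1.07, Ccne2 lies lowest with U0126 at −1.34, and Cdkn2a is the filled point above 0 with U0126.

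Downstream, of 11 measured genes among the other pocket proteins, E2F and DP factors, 2 were higher and 1 lower after knockdown. Of all genes, 12.1% were higher and 12.4% lower in that comparison. Rbl1, which encodes the pocket protein p107 and is itself an E2F target, fell from 8.19 ± 0.25 to 7.12 ± 0.01 (−1.07 ± 0.12, adjusted p = 0.000463). E2f5, a repressive E2F, rose by 0.30 ± 0.06 (adjusted p = 0.00661) and fell with U0126 by −0.50 ± 0.06 (adjusted p = 0.000917), the pattern of Ccnd3. Tfdp1, a DP partner of E2F, rose by 0.22 ± 0.07 (adjusted p = 0.0396), a call kept in 2 of 9 fits that left out 1 array, those without Control RNAi replicate 1 or NF1 RNAi + U0126 replicate 3 (adjusted p up to 0.133 in the others). Rbl2, which encodes p130, differed by 0.21 ± 0.07 (adjusted p = 0.0611, 0.042 with the block, or 0.0499 without Control RNAi replicate 3). With U0126 only E2f5 of the 11 was called, where 5.95% of all genes were higher and 6.45% lower.

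The 7 genes of cyclin E, CDK2, CDC25A and the CDK-activating kinase held 2 that fell after knockdown, none that rose and, with the block, 4 that fell. Among all genes, 12.4% were lower and 12.1% higher in the main fit. The 2 belong to the CDK-activating kinase, which phosphorylates CDKs on their activation loop: Mnat1 fell by −0.53 ± 0.08 (adjusted p = 0.00135) and Cdk7 by −0.25 ± 0.07 (adjusted p = 0.032), the latter lost without Control RNAi replicate 2 or 3 or without any 1 NF1 RNAi array (adjusted p up to 0.0978). Ccne1 (cyclin E1) was −0.45 ± 0.21 after knockdown (adjusted p = 0.18, or 0.032 with the block). Ccne2 (cyclin E2) fell with U0126 to 5.66 ± 0.32 (−1.34 ± 0.28, adjusted p = 0.0163), a call lost without NF1 RNAi replicate 1 or 2 or NF1 RNAi + U0126 replicate 2 or 3 (adjusted p up to 0.0705). These Ccne2 values are from the brightest of its 2 probe sets, and the other was not called with U0126. After knockdown the brightest was at −0.44 ± 0.28 (adjusted p = 0.339), and the other was called. Cdk2 passed no comparison, at 0.11 and −0.19 (adjusted p = 0.336 and 0.138).

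Of 13 measured genes that control the turnover of D cyclins and p27, 2 rose and 4 fell after knockdown, where 12.1% of all genes were higher and 12.4% lower. Fbxo4, the F-box protein described for cyclin D1 degradation, fell by −0.81 ± 0.10 (adjusted p = 0.000748). Skp1, a core subunit of SCF ubiquitin ligases, fell by −0.79 ± 0.09 (adjusted p = 0.000539), and Cks1b, the cofactor with which SKP2 recognises p27, fell by −0.72 ± 0.16 (adjusted p = 0.0105). These 3 calls stood when each array was left out. For Cks1b, 1 of its 2 probe sets was called. With U0126, 1 of the 13 was called lower, where 6.45% of all genes were lower. It was Fbxo31, at −0.35 ± 0.09 (adjusted p = 0.0457). That call was kept in 2 of 9 fits that left out 1 array, those without Control RNAi replicate 1 or NF1 RNAi + U0126 replicate 3 (adjusted p up to 0.16 in the others). Skp1 was at −0.30 ± 0.09 (adjusted p = 0.08, 0.0116 with the block, or 0.0393 without Control RNAi replicate 1), and Fbxo4 at 0.28 ± 0.10 (adjusted p = 0.136, or 0.036 with the block). The array measures transcripts, so the stability of the cyclin and p27 proteins was not measured.

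Of 7 measured transcription factors and regulators known to act on the p27, p57 or INK4 genes, none passed after knockdown in the limma fit, with 1 higher and 2 lower at an unadjusted p under 0.05, and 2 higher and 1 lower with the block. The main fit called 12.1% of all genes higher and 12.4% lower. The smallest p belonged to Ezh2, a Polycomb methyltransferase that represses INK4 genes (−0.24 ± 0.08, adjusted p = 0.0542, or 0.0449 without Control RNAi replicate 3). With U0126, Foxo3, a forkhead activator of Cdkn1b, fell by −0.44 ± 0.07 (adjusted p = 0.00528). It was the one call among the 7, where 6.45% of all genes were lower. Ezh2 was −0.27 ± 0.08 in that comparison (adjusted p = 0.0547, or 0.016 without Control RNAi replicate 1).

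S phase and division genes were lower after knockdown, where 12.1% of all genes were called higher and 12.4% lower in the main fit. Of 19 measured E2F targets of the G1/S boundary, 9 fell and none rose (at an unadjusted p under 0.05 in limma, 11 lower and 0 higher), with a median of −0.55 against 0.02 over all genes. Ccna2, which encodes cyclin A2, fell by −3.35 ± 0.59 (adjusted p = 0.00386), Uhrf1, a partner of the maintenance DNA methyltransferase, by −1.71 ± 0.41 (adjusted p = 0.0165), and Gins1, a subunit of the replicative helicase, by −1.39 ± 0.28 (adjusted p = 0.00797). The 19 measured genes of G2 and mitosis held 12 that fell and 0 that rose, with a median of −1.77, 16 lower and 0 higher at an unadjusted p under 0.05, and 15 lower with the block. Mki67, the proliferation antigen, fell by −3.24 ± 0.64 (adjusted p = 0.00677), Cdkn3, a CDK phosphatase, by −2.96 ± 0.56 (adjusted p = 0.0058), and Cdk1, the mitotic kinase, by −2.87 ± 0.57 (adjusted p = 0.00704). Without NF1 RNAi replicate 2, or without NF1 RNAi replicate 3, 6 of these 19 genes passed, and the call on Uhrf1 was lost without the latter (adjusted p = 0.0629).

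These genes set Control RNAi replicate 1 apart. The median of the G2 and mitosis genes read 8.68, 6.82 and 6.85 in Control RNAi, 5.95, 5.83 and 5.65 in NF1 RNAi, and 5.61, 5.66 and 5.56 in NF1 RNAi + U0126. That of the E2F targets read 8.41, 7.25 and 7.29, then 7.09, 6.90 and 6.85, then 7.03, 6.97 and 7.13. Control RNAi replicate 1 was thus the array with the highest division genes, Ccnd1 and Ccnd2 of its group and the lowest Cdkn1b and Cdkn1c. The part of this array's division gene level in the differences of those members was not tested. Without it, 9 E2F targets and 14 G2 and mitosis genes were called lower, and the differences after knockdown were −0.55 for Ccnd2 (adjusted p = 0.0109), −0.46 for Cdk4 (adjusted p = 0.00171), 0.28 for Ccnd3 (adjusted p = 0.0156) and −1.67 for Cdkn1c (adjusted p = 0.0575).

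**Figure D4:**
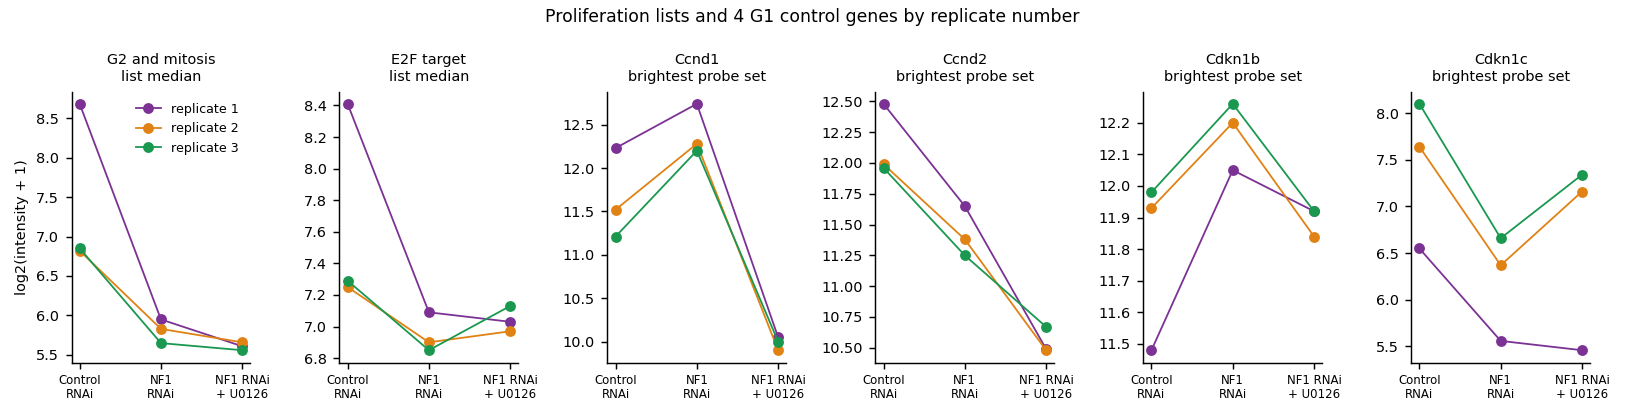
Median log2 intensity of the G2 and mitosis genes and of the E2F targets, and log2 intensity of the brightest probe sets of Ccnd1, Ccnd2, Cdkn1b and Cdkn1c, with lines that join the 3 arrays of the same replicate number across the groups. Each panel has its own axis range. Control RNAi replicate 1 stands at 8.68 for the G2 and mitosis median against 6.82 and 6.85 in the other controls, and replicate 1 runs lowest in every group for Cdkn1c.

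With U0126 added to knockdown cells, few division genes passed while the D cyclins fell. In that comparison 5.95% of all genes were called higher and 6.45% lower. None of the 19 G2 and mitosis genes passed in limma (0 in either direction at an unadjusted p under 0.05, and 1 lower without Control RNAi replicate 1), with a median of −0.15. Their median level in NF1 RNAi was already low, at 5.95, 5.83 and 5.65, so a further fall may be hard to measure. The smallest p was that of Bub1, a spindle checkpoint kinase, at −0.87 ± 0.55 (adjusted p = 0.418). Among the E2F targets 1 rose and 1 fell: Cdt1, a replication licensing factor, by 0.52 ± 0.11 (adjusted p = 0.0151), and Mcm7, a subunit of the licensed helicase, by −0.30 ± 0.08 (adjusted p = 0.0369), calls kept in 7 and 2 of the 9 fits that left out 1 array. Cdt1 was lost without NF1 RNAi replicate 1 or 3 (adjusted p up to 0.0601), and Mcm7 was kept without Control RNAi replicate 1 or NF1 RNAi replicate 1 (adjusted p up to 0.143 in the others).

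ERK output genes, feedback regulators and immediate early genes that serve as a readout of the pathway, fell with the inhibitor, and few passed after knockdown. Of 14 measured, 1 rose and 1 fell after knockdown, where 12.1% of all genes were higher and 12.4% lower. These counts became 3 higher without Control RNAi replicate 1 and 0 lower without Control RNAi replicate 2. With U0126, 7 fell and none rose, with a median of −0.97, where 6.45% of all genes were lower and 5.95% higher. Dusp6, an ERK phosphatase, fell by −3.29 ± 0.39 (adjusted p = 0.00105), Egr1, an immediate early factor, by −3.56 ± 0.44 (adjusted p = 0.00121), and Phlda1 by −1.85 ± 0.24 (adjusted p = 0.00173). After knockdown the same 3 genes, named for their fall with U0126, were at 0.15, −1.14 and 0.44 (adjusted p = 0.85, 0.108 and 0.26). The 1 gene of the list that rose after knockdown was not among these 3, and Ccnd1 on 1371150_at and Ccnd3 also rose. Egr1 was called lower without Control RNAi replicate 3 (−1.64, adjusted p = 0.0144), and Phlda1 was called higher without Control RNAi replicate 1 (0.72, adjusted p = 0.024).

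Cell type markers were counted in the same way. Of all genes, 12.1% were higher and 12.4% lower after knockdown, and 5.95% were higher and 6.45% lower with U0126. Of 9 measured Schwann cell markers, 1 rose and 1 fell after knockdown, and 5 fell with U0126. Their summed intensity ran from 22162 to 32624 in Control RNAi, from 33438 to 36825 in NF1 RNAi and from 27609 to 29711 in NF1 RNAi + U0126. The brightest markers weigh most in such a sum, and the median log2 value of the 9 went the other way after knockdown. It read 10.83, 10.81 and 10.72 in Control RNAi, 9.96, 10.32 and 10.41 in NF1 RNAi, and 8.75, 9.27 and 9.45 in NF1 RNAi + U0126. The median of the 9 log2 differences was 0.14 after knockdown and −0.47 with U0126. Of 12 fibroblast markers, 1 rose and 2 fell after knockdown and 1 moved each way with U0126. Their sums were 37250 to 39247, 30514 to 31632 and 23124 to 31064. The median of the 12 read 5.91, 5.84 and 5.87 in Control RNAi, so the sums rested on brighter members of the list. Dcn and Lum were at 3.95 and 3.08 in control cells, near the bottom of the scale, whereas other members were bright enough to carry these sums. Neither the dim nor the bright members by themselves give the fibroblast content, which was not measured. Macrophage markers summed to 462 to 497, 527 to 556 and 569 to 641 over 10 genes, with 1 higher in each of those comparisons. None of 8 endothelial and mural markers was called in limma in either, with 1 lower after knockdown and 1 higher with U0126 at an unadjusted p under 0.05, and their sums were 525 to 688, 494 to 520 and 493 to 612. Of 8 neuronal markers, 1 rose and 4 fell after knockdown, and 2 rose and 1 fell with U0126 (sums 8220 to 12667, 4221 to 4836 and 5853 to 6192). The part of any marker difference in the members' differences was not tested.

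For members that passed a comparison on their brightest probe set, the genes with the most similar profile over the 9 arrays were listed by Pearson's r, as a description. The arrays fall into 3 groups, so any gene with the same group steps has a high r. Ccnd1 was closest to Sh3kbp1 (r = 0.9941), Phlda1 (0.9908) and Celf4 (0.9906), and Phlda1 is in the ERK output list. Ccnd2 was closest to Dmpk (0.9864), Ccnyl1 (0.9859) and Msn (0.985). Ccnd3 was closest to Enpep (0.9948), Cmtm5 (0.9884) and Acadm (0.988). The profile of Cdk4 was nearest to those of Ahnak2 (0.9854), Thap4 (0.9819) and Tmem43 (0.976), and that of Cdkn2b to Taldo1 (0.9937), Bola1 (0.9911) and Slc50a1 (0.9903). No member was among the 3 nearest genes of another.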

How the data were processed

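Total RNA of 9 Schwann cell cultures was hybridised to Affymetrix rat arrays. Each deposited value is the linear intensity of a probe set on an array (5.62 to 25800.2). The authors used RMA, per the submitters' processing notes, and no source used here gives its software or version. RMA makes the distribution of intensity equal across arrays, so a change common to most transcripts would not show.

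From the deposited intensities, log2(value + 1) was computed, which understates changes of dim probe sets. Of 31099 probe sets, 57 manufacturer controls were left out. The platform annotation paired 20826 probe sets with 1 gene, 436 with several and 9780 with none, and symbols were updated through gene ID (20758), accession (2) or older symbol (12) in the RefSeq table of GRCr8, with 54 kept. In lists, a gene is its probe set with the highest mean. No filter on low values was applied, so all 14 member probe sets were tested. Arrays give no read depth, and their number, 3 per group, limits the precision.

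The 3 comparisons were fitted in R 4.3.3 by the lmFit and eBayes functions of limma 3.58.1 (group means, 6 residual degrees of freedom). The fit was tested on simulated data. The labels call the replicates independent and biological but do not say what a shared number marks. Deviations from group means of same-numbered arrays correlated at r = 0.14 to 0.59 in all 9 pairs, and those of different numbers at −0.48 to 0.37 in 18 pairs. A pairing by number was therefore allowed for in a blocked fit (4 residual degrees of freedom), run as an alternative. The main fit leaves the number out, because the labels state no pairing. Where these fits differ, as for Cdkn1c after knockdown, the call depends on whether the number pairs the arrays. The exact permutation test used scipy 1.17.1. The other alternatives are named with their effect in the closing section.

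The member genes, the lists around them and the tests were chosen with earlier results of these data known. Named list genes are up to 3 passing genes per comparison with the largest difference, or the one with the smallest p where none passed, and any gene of the 3 lists nearest to the members (other inhibitors, pocket and E2F factors, cyclin E and CDK2). Promoter windows come from RefSeq (GRCr8). Figures were drawn with matplotlib 3.10.9.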

Additional observations from a re-analysis of the deposited data

How the results depend on the processing

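No call on a member changed direction under the 22 alternatives run, and 22 of the 42 member differences (14 probe sets, 3 comparisons) stayed on their side of the threshold under every alternative that gave a value. The replicate block changed the calls given beside the results for Ccnd1, Cdkn1b and Cdkn1c and no other call on a member. For NF1 RNAi against Control RNAi, where 6338 probe sets passed, array weights gave 11541, 1 probe set per gene 3734, an adjusted p under 0.01 3365 and a 2-fold limit 909, and the block 8011. Leaving out 1 array gave 4550 to 6299. The 3 member probe sets called higher there became 6 with the replicate block, 6 with only probe sets that reach log2 6 on 3 arrays or more, 7 with array weights, 5 without replicate 1 of all groups, 1 with only the groups compared, 1 at an adjusted p under 0.01, 0 with a 2-fold limit, and 1 to 5 when 1 array was left out (5 without Control RNAi replicate 1, and 1 without NF1 RNAi replicate 1 or 2). The 2 called lower became 0 with a 2-fold limit.

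For NF1 RNAi + U0126 against NF1 RNAi, 3113 probe sets passed, against 4742 with array weights, 1951 with 1 probe set per gene, 1363 at an adjusted p under 0.01, 513 with a 2-fold limit and 4520 with the block. Leaving out 1 array gave 1676 to 4140, with 1676 without NF1 RNAi replicate 2, 2049 without NF1 RNAi replicate 3 and 1897 without NF1 RNAi + U0126 replicate 2. Of members, the 2 higher became 0 with a 2-fold limit, and the 5 lower became 3 with a 2-fold limit or with 1 probe set per gene, which keeps 1 of the Ccnd1 probe sets, and 5 to 7 when 1 array was left out. For NF1 RNAi + U0126 against Control RNAi, the count of 8710 became 13461 with array weights, 5047 with 1 probe set per gene, 5463 at an adjusted p under 0.01, 1521 with a 2-fold limit and 10257 with the block. Leaving out 1 array gave 6978 to 8923. There the 1 member higher became 0 with a 2-fold limit and the 5 lower became 3 with 1 probe set per gene. Where no construction is named, the cause was not tested.

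Median centring or quantile normalization moved the median difference of all probe sets to at most 0.06 in any comparison. With median centring, 4 member probe sets were called higher after knockdown rather than 3, the added one being Ccnd1 on 1383075_at. Quantile normalization, log2 without a pseudocount, log2(value + 16) or an intensity trend with robust eBayes left each member count at its value. Cdk6 lies at the low end of signal, where a change may not be measurable. Each group holds 3 arrays, and fits that leave 1 out assume that its group varies like the others.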
